A study of Mus musculus with 8 samples.

Results

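The genes described here are 9 receptors and ligands of the colony-stimulating factor family and of interleukins 4 and 10: Csf1r, Csf2ra, Csf2rb, Csf2rb2, Csf3r, Csf1, Il4ra, Il10ra and Il10. They were found by their gene names among the 22597 genes of the deposited table, each in 1 row, and all 9 passed the filter on low counts, as did 12750 genes in all. Their levels were compared in macrophages sorted from the lungs of mice that had received marrow with or without the TGF-β receptor gene Tgfbr2 in myeloid cells.

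Colony-stimulating factors act on myeloid cells through receptors on the cell surface. Csf1r is the tyrosine kinase receptor for macrophage colony-stimulating factor (the product of Csf1) and for interleukin 34, and most tissue macrophages need it to survive. The receptor for granulocyte-macrophage colony-stimulating factor (GM-CSF) pairs a binding chain, Csf2ra, with the common beta chain, Csf2rb, and signals mainly through Jak2 and Stat5. In the lung, GM-CSF is needed for the maturation of alveolar macrophages. Interleukin 4 signals through Il4ra and Stat6, and interleukin 10 through Il10ra and Stat3.

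Tgfbr2_KO libraries came from recipients of Lyz2Cre Tgfbr2fl/fl marrow, and WT libraries from recipients of Tgfbr2fl/fl marrow without Cre, with 4 libraries in each group (KO 1 to KO 4 and WT 1 to WT 4). All recipients were female C57BL/6 CD45.1/CD45.2 IMDTR mice, which carry a diphtheria toxin receptor in Cx3cr1-expressing cells, and all donor marrow was CD45.2. The recipients were irradiated with the thorax protected. Each was given 50 ng of diphtheria toxin 1 month after transplantation, and macrophages were sorted 10 days later. The age field of the labels gives 12 to 16 weeks, while the treatment text gives 18 weeks at irradiation. Lyz2Cre acts in myeloid cells, and how many recipient cells were left in the sort was not measured. Only Tgfbr2_KO donors carried Cre, so effects of Cre and of receptor loss cannot be told apart. The labels do not say that the libraries stem from separate mice, so the p-values measure a spread between libraries that may be technical.

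Gene counts summed to between 15597310 and 37654133 per library. Tgfbr2 itself was at 424, 576, 529 and 539 CPM (counts scaled to library size with TMM factors) in KO 1 to KO 4, against 548, 474, 546 and 542 CPM in WT 1 to WT 4. A count over the whole gene need not fall when a floxed segment is deleted, so these values did not check the group labels, and genotypes are given as labelled. Lyz2, the gene that carries Cre in the donors of the KO libraries, was at 3440 to 5611 CPM in KO libraries, against 7285 to 13193 CPM in WT libraries, without overlap (log2 fold change -1.06, edgeR adjusted p = 0.191). KO 1, WT 1 and WT 2 stood apart from the other 5 libraries and are called lung-rich: their summed level of 10 epithelial markers was 3116 to 5594 CPM, against 163.7 to 253.3 CPM in the others. All 10 endothelial and all 10 fibroblast markers were likewise higher in each lung-rich library. The summed level of 10 macrophage markers was 5582 CPM in KO 1, 8366 CPM in WT 1 and 8966 CPM in WT 2, against 11970 to 12700 CPM in the other 5. The lung-rich set thus holds 1 KO library, with the lowest macrophage sum of all, and the 9 genes are given within both sets.

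Csf2rb and Csf2rb2 had the lowest adjusted p of the genes described here in the edgeR fit with the library set as a term (0.00615 and 0.0115). They are neighbours on chromosome 15, so their sequences are shown first. In GRCm38 Csf2rb (ENSMUSG00000071713) lies at chr15:78325752-78353847 on the plus strand and Csf2rb2 (ENSMUSG00000071714) at chr15:78282507-78305721 on the minus strand. The genes point away from each other, with 20031 bases between their starts. In the mouse Csf2rb encodes the beta chain shared by the receptors for GM-CSF, interleukin 3 and interleukin 5, and Csf2rb2 encodes a beta chain for interleukin 3 alone. Their coding sequences, of 2688 and 2634 bases, were identical at 95.2% of 2628 aligned bases. The windows below, from GENCODE M21 transcripts, are the 60 coding bases that differ most, with the 13 differing bases in capitals. The Csf2rb window is in exon 5 (chr15:78338893-78338952, plus strand) and the Csf2rb2 window in exon 4 (chr15:78294379-78294438, minus strand).
Csf2rb: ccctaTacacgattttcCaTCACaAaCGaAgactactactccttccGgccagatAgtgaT
Csf2rb2: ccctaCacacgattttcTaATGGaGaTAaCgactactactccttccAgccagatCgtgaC

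Other stretches were identical in both genes. A window of 60 bases in exon 15 of Csf2rb (chr15:78348986-78349045, plus strand) had no differing base from exon 14 of Csf2rb2 (chr15:78284403-78284462, minus strand) and is shown as an example of such shared stretches, the longest of which was 242 bases.
Csf2rb: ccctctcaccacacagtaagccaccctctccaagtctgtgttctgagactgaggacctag
The 31-base words were taken from the full transcripts of each gene, untranslated parts included. Of these, 18.8% of those of Csf2rb also occurred in Csf2rb2, and 28.6% of those of Csf2rb2 occurred in Csf2rb. Estimated counts divide reads from such stretches between the genes, so each gene's own level is uncertain and their sum is given beside it.

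Set against exon length, Csf1r stood highest of the 9 and Csf1 lowest. Per kilobase of exon, mean levels were 459.5 CPM in Tgfbr2_KO and 413.9 CPM in WT for Csf1r, and 149 CPM in Tgfbr2_KO and 144.2 CPM in WT for Csf2ra. Csf1r was above every other gene in all 8 libraries, at 261.4 CPM per kilobase or more, while Csf2ra reached 181.8 at most. Il10ra followed with 88.4 CPM per kilobase in Tgfbr2_KO and 90.34 in WT, and its range, 58.19 to 99.69, overlapped that of Csf2ra from 79.1 upward. Il4ra (44.35 to 70.71 CPM per kilobase over the 8 libraries), Csf2rb (25.43 to 91.47) and Il10 (29.35 to 76.15) overlapped one another and Il10ra, and Csf2rb also overlapped Csf2ra. Csf2rb2 (17.97 to 57.07) and Csf3r (16.8 to 39.39) overlapped each other, Il10 and Csf2rb, and Csf2rb2 also overlapped Il4ra. Csf1 stood at 3.009 to 9.917 CPM per kilobase, below every other gene.

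**Figure D1:**
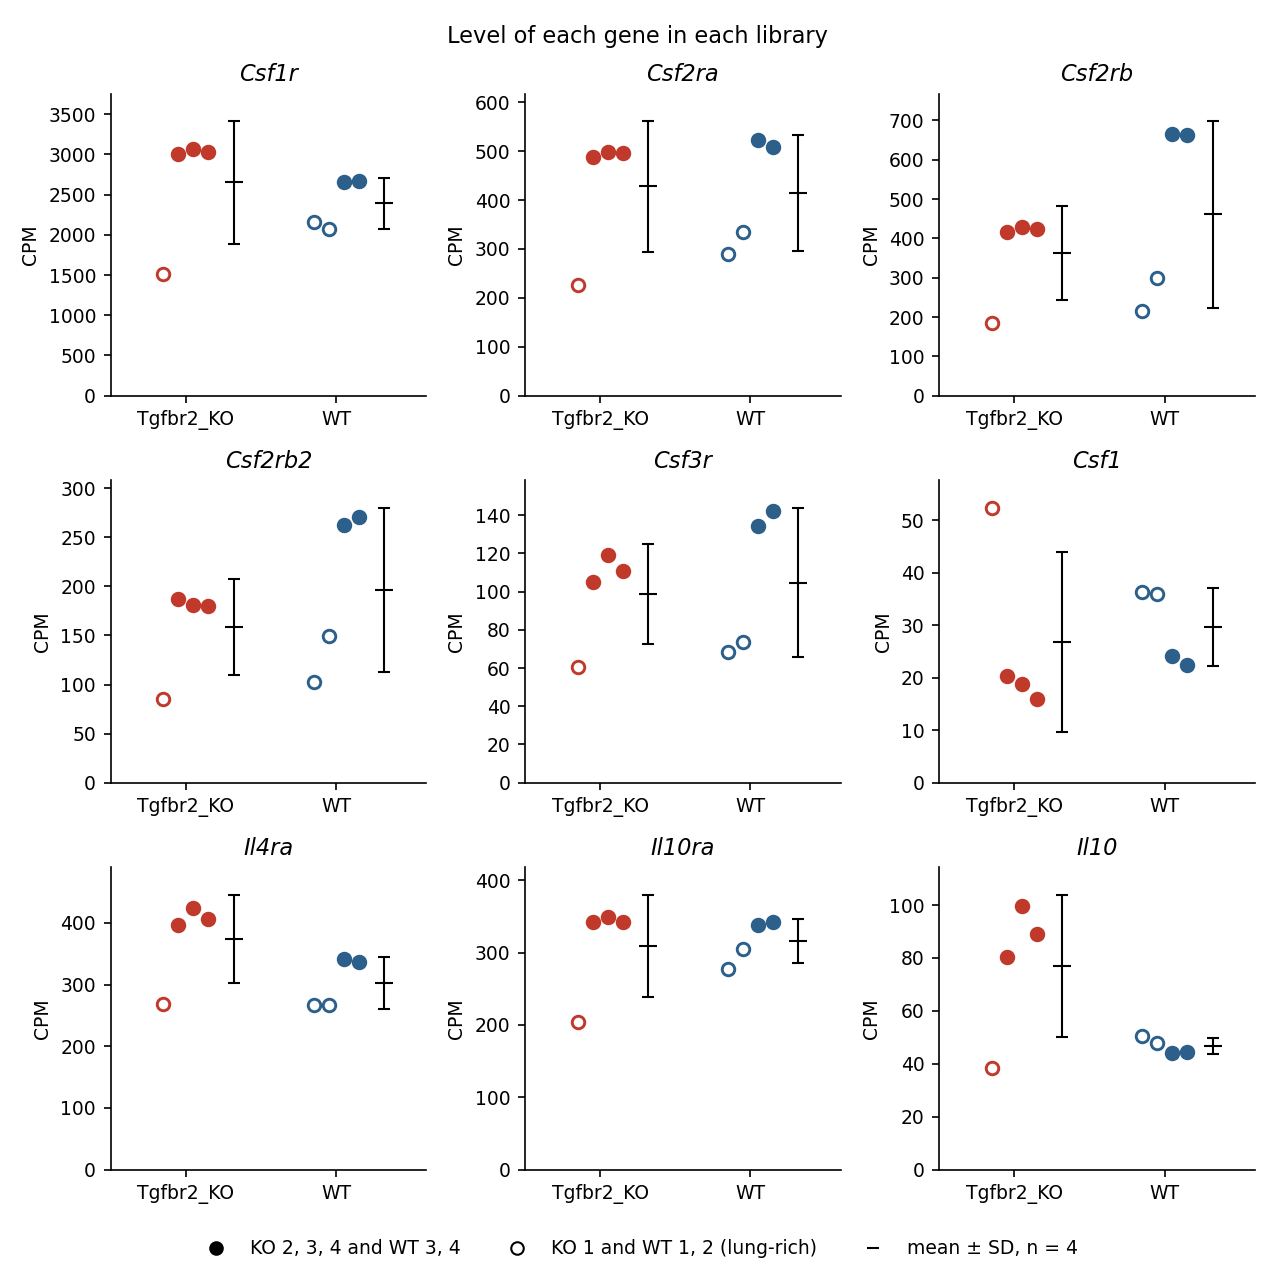
Level of each gene in CPM (y axis, from 0) in the 4 Tgfbr2_KO and 4 WT libraries, with open circles for the lung-rich libraries, filled circles for the others and bars for the mean ± SD (n = 4). KO 1 is the lowest library in 7 panels, the highest for Csf1, and for Il4ra at 269 CPM level with WT 1 and WT 2.

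Over all 8 libraries none of the 9 genes passed the edgeR quasi-likelihood test at an adjusted p of 0.05, where 0.298% of all tested genes did in either direction. At an unadjusted p under 0.05, 1 of the 9 did, Il10, where 838 of the 12750 tested genes were higher and 490 lower. No gene separated the 4 Tgfbr2_KO from the 4 WT libraries without overlap, against 6.9% of all tested genes. Groups without overlap are frequent within the sets: 59.1% of all tested genes had none between KO 2 to KO 4 and WT 3 and WT 4, and 79.2% had none between KO 1 and WT 1 and WT 2. For 7 of the 9 the 3 lung-rich libraries all lay below the other 5, as 23.1% of all tested genes did. The exceptions were Csf1, higher in the lung-rich libraries, and Il10, whose sets overlapped. In sorted bulk RNA, fewer cells of a type and less RNA per cell cannot be told apart. The part of the lung transcripts in these differences was not tested.

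With the set as a term in the edgeR model, 3 of the 9 genes were lower in Tgfbr2_KO (7.89% of all tested genes were) and 0 were higher (8.59% were). The 3 were Csf2rb, Csf2rb2 and Csf3r. At an unadjusted p under 0.05 there were 4 genes in all, the other being Il4ra. At that level 2178 of the 12750 tested genes were higher and 1730 lower. DESeq2 with the same term also called 3 genes lower, among 2449 genes that it called in either direction. Within KO 2 to KO 4 against WT 3 and WT 4, 3 genes were higher (19.7% of all tested genes were) and 4 lower (18.7% were). Within the lung-rich set, KO 1 against WT 1 and WT 2, edgeR called 0 of the 9, against 5.11% of all tested genes, and 6 had an unadjusted p under 0.05. KO 1 is the only Tgfbr2_KO library there and was assumed to vary as WT 1 and WT 2 did.

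**Figure D2:**
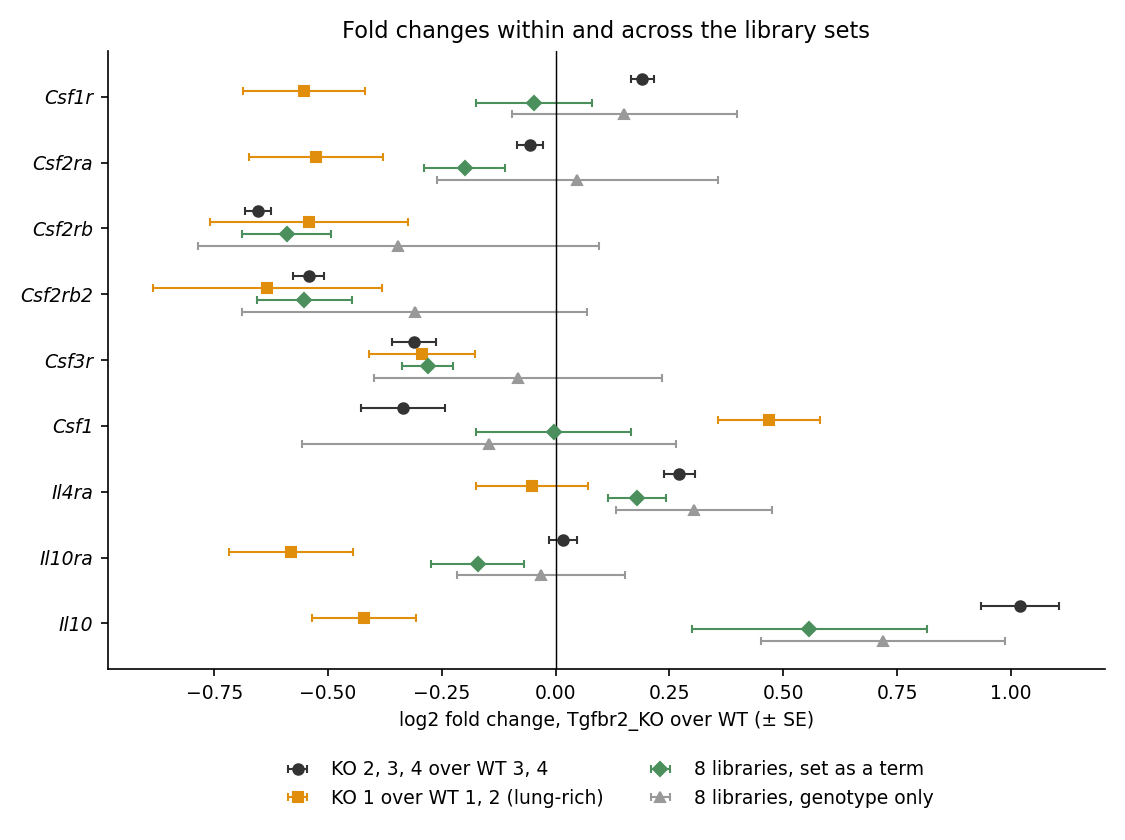
The log2 fold change of Tgfbr2_KO over WT (x axis, ± SE) for each gene, within KO 2 to KO 4 and WT 3 to WT 4, within the lung-rich libraries, over 8 libraries with the set as a term and over 8 libraries with genotype only. Csf2rb, Csf2rb2 and Csf3r are below 0 in all 4 edgeR fits, though in the lung-rich set their direction turns when they are set against the C1q chains, and Csf1r, Csf1, Il4ra, Il10ra and Il10 have opposite signs within the sets.

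The common beta chain was lower in Tgfbr2_KO, with a call in the 5 other libraries but not in the lung-rich set. In the lung-rich set its direction turned relative to the C1q chains, a scale described below. Csf2rb was at 185, 415, 428 and 423 CPM in KO 1 to KO 4, against 216, 298, 666 and 663 CPM in WT 1 to WT 4. KO 1 was below both lung-rich WT libraries, KO 2 to KO 4 were below WT 3 and WT 4 without overlap, and the whole groups overlapped. With the set as a term the log2 fold change was -0.59 (SE 0.10, edgeR adjusted p = 0.00615). Among the 5 other libraries the edgeR fit gave -0.65 (SE 0.03, adjusted p = 8.24e-13), and among the lung-rich libraries -0.54 (SE 0.22, adjusted p = 0.224). The fold changes of the sets differed by 0.18 on the log2 scale, which did not pass the edgeR test of that difference (adjusted p = 0.611, interval -0.32 to 0.67). That value rests on WT 1 and WT 2, which lie far apart: it was -0.03 without WT 1 and 0.43 without WT 2, and passed in the last case (edgeR adjusted p = 3.95e-05).

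Csf2rb2 followed the same course. Its level was 85.2, 187, 181 and 180.3 CPM in KO 1 to KO 4, against 103, 149, 263 and 270.5 CPM in WT 1 to WT 4. Csf2rb2 had a log2 fold change of -0.55 with the set as a term (SE 0.11, edgeR adjusted p = 0.0115), -0.54 among KO 2 to KO 4 with WT 3 and WT 4, and -0.63 among the lung-rich libraries. Without WT 4 the call with the set as a term was lost (adjusted p = 0.0537). The sets differed by -0.03 (edgeR adjusted p = 0.955), by -0.27 without WT 1 (adjusted p = 0.00749) and by 0.28 without WT 2 (adjusted p = 0.00837). Csf2rb made up 68.5% to 70.2% of the counts of both genes in Tgfbr2_KO libraries and 66.6% to 71.7% in WT libraries, so the ranges of the 2 groups overlapped. For the sum of both genes the log2 fold change with the set as a term was -0.58 (SE 0.10, edgeR adjusted p = 0.00733).

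The binding chain that pairs with Csf2rb did not pass the test in either set. Csf2ra (chr19:61223957-61228429, minus strand) was at 227, 489, 499 and 496 CPM in KO 1 to KO 4, against 290, 335, 522 and 509 CPM in WT 1 to WT 4. Within each set every KO library lay below every WT library, but by a log2 fold change of only -0.06 in the 5 other libraries (interval -0.12 to 0.01, edgeR adjusted p = 0.142). It was -0.53 in the lung-rich set, and relative to the C1q chains, the scale described below, the log2 ratio there was 0.14. Csf2ra, Csf2rb, Csf2rb2 and Csf3r were the 4 genes lower without overlap in both sets, as 13.6% of all tested genes were.

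Csf3r, the receptor for granulocyte colony-stimulating factor and best known from neutrophils and monocytes, lies at chr4:126024550-126044440 on the plus strand. It was at 60.6, 105, 119 and 111 CPM in KO 1 to KO 4, against 68.2, 73.8, 135 and 142 CPM in WT 1 to WT 4. WT 3 and WT 4 were the highest libraries, and Tgfbr2_KO was lower by a smaller margin than for the beta chains. By edgeR Csf3r had a log2 fold change of -0.28 with the set as a term (SE 0.06, adjusted p = 0.0131) and -0.31 among KO 2 to KO 4 and WT 3 and WT 4 (SE 0.05, adjusted p = 8.33e-05). The first call was lost without WT 4 (adjusted p = 0.0679) and when WT 3 and WT 4 were summed to 1 library (adjusted p = 0.0505).

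Summed markers of neutrophils and of alveolar macrophages moved with these genes in the 5 other libraries, and those of monocytes did not. The summed level of 10 monocyte markers was 1969.5 to 1995.5 CPM in KO 2 to KO 4, against 1920.2 and 1924.4 CPM in WT 3 and WT 4. Single monocyte markers went both ways there. The summed level of 10 neutrophil markers was 39.81 to 42.01 CPM in KO 2 to KO 4, against 81.14 and 79.82 CPM in WT 3 and WT 4. Ly6g, which defines neutrophils, did not exceed the floor of 3 counts in any library. The summed level of 10 alveolar macrophage markers was 141.9 to 168.8 CPM in KO 2 to KO 4, against 511.7 and 522.8 CPM in WT 3 and WT 4. In WT 3 and WT 4 most of it was Chil3, a chitinase-like lectin, at 15.8 to 17.6 CPM in KO 2 to KO 4 and at 348 and 347 CPM in WT 3 and WT 4. In the lung-rich set the alveolar macrophage sum ran the other way, at 205 CPM in KO 1, against 148.5 and 166.2 CPM in WT 1 and WT 2. Chil3 alone was at 20.4 CPM in KO 1, against 17.5 and 30.0 CPM in WT 1 and WT 2. The neutrophil sum was 51.8 CPM in KO 1, against 51.1 and 37.9 CPM in WT 1 and WT 2. Without Chil3 the sum of the other 9 markers was 125.4 to 151.2 CPM in KO 2 to KO 4, against 163.4 and 175.4 CPM in WT 3 and WT 4. Siglecf and Marco, which mark alveolar macrophages, stayed at or below 5.15 CPM in all 8 libraries. Marco and Fabp4, both on the list, were higher in KO 2 to KO 4 than in WT 3 and WT 4 (log2 fold changes 2.15 and 1.52, edgeR adjusted p = 0.00433 and 0.000962). The part of these cells in the levels of Csf2rb, Csf2rb2 and Csf3r was not tested.

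Relative to the C1q chains, the beta chains and Csf3r kept their lower level in the 5 other libraries but not in the lung-rich set. Each gene was divided by the summed CPM of C1qa, C1qb and C1qc, complement chains made by tissue macrophages, a scale chosen after the values were seen. Csf2rb then stood at 47.8, 46.4, 51.0 and 48.9 per 1000 CPM of the C1q chains in KO 1 to KO 4, against 38.3, 48.8, 78.3 and 76.0 in WT 1 to WT 4. The 4 Tgfbr2_KO libraries were close together and the WT libraries spread on both sides of them. The log2 ratio of Csf2rb was -0.66 among the 5 other libraries, against 0.14 in the lung-rich set, so the direction in the lung-rich set turned on this scale. It also turned for Csf2rb2 (-0.55 in the 5 other libraries, 0.06 in the lung-rich set) and Csf3r (-0.32 and 0.37 in the same order). C1qa, C1qb and C1qc were themselves lower in KO 1 than in WT 1 and WT 2 (log2 fold changes -0.70, -0.67 and -0.62). Of the other macrophage markers, Fcgr1 (-0.37) and Mertk (-0.39) were lower there by less than Csf2rb (-0.54), and the rest by more. The turn thus depends on the reference.

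**Figure D3:**
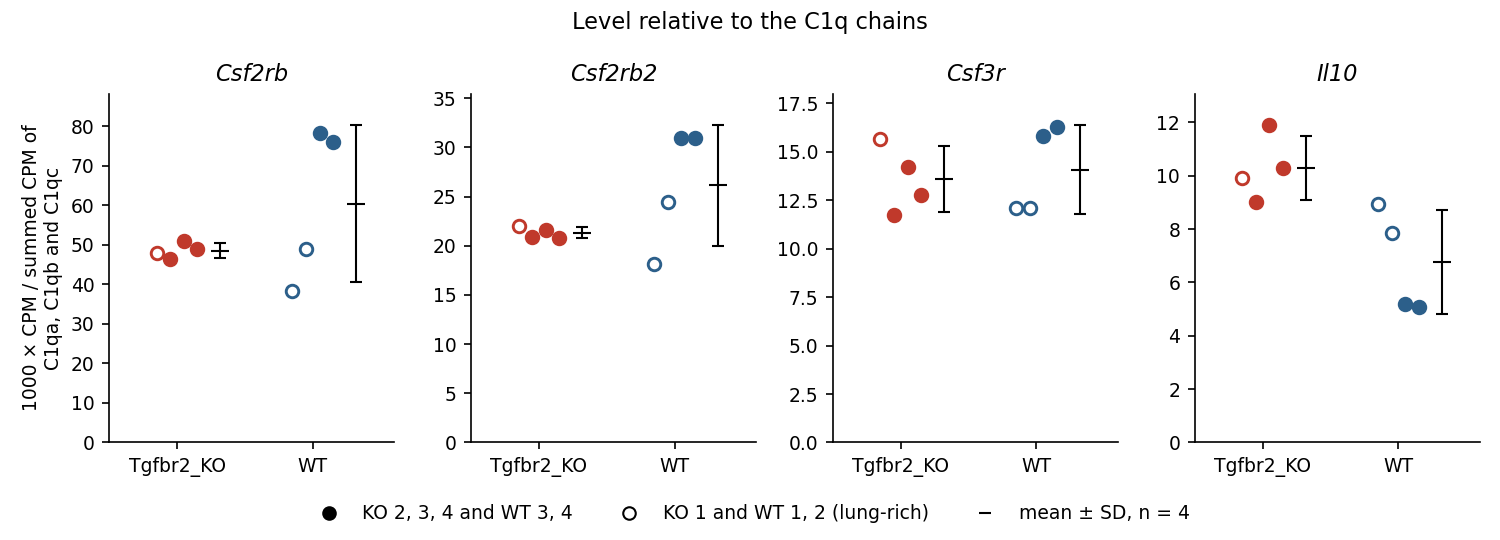
Level of 4 genes per 1000 CPM of C1qa, C1qb and C1qc together (y axis, from 0) in the Tgfbr2_KO and WT libraries, with open circles for the lung-rich libraries and bars for the mean ± SD (n = 4). Il10 is higher in all 4 Tgfbr2_KO libraries than in all 4 WT libraries, and Csf2rb and Csf2rb2 are highest in WT 3 and WT 4.

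The sequence before the start of Csf2rb2 is shown because this gene moved together with Csf2rb. It is the 250 bases upstream of the RefSeq start (GRCm38.p6, chr15:78305722-78305971, minus strand), with capitals for a Smad motif (CAGAC or its reverse complement GTCTG) that is followed, without overlap, by a motif of the myeloid factor PU.1 (GAGGAAG or its reverse complement CTTCCTC), both searched on both strands.
Csf2rb2: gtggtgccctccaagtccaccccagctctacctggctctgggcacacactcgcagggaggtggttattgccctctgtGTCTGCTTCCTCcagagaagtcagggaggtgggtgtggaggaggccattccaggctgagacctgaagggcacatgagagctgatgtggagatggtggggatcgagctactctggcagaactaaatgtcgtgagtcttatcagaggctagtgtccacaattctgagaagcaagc
Smads are the transcription factors that TGF-β receptors activate. The Smad motif occurred in 42.2% and the PU.1 motif in 10.6% of 32851 such upstream windows. Of the 5 genes with a window, Csf2ra, Csf2rb2, Csf3r, Csf1 and Il4ra, 2 held the Smad motif (Csf2rb2 and Il4ra). The PU.1 motif was in 3 (Csf2ra, Csf2rb2 and Csf3r), so only Csf2rb2 held both. Il4ra was higher in Tgfbr2_KO in the 5 other libraries. Csf2ra and Csf3r, lower without overlap in both sets, had no Smad motif. How often both motifs lie side by side in other windows was not counted. A match describes the letters and does not show binding.

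Of the 9 genes, Il10 had the largest fold change in the 5 other libraries. It encodes interleukin 10, a cytokine that restrains inflammatory gene expression, and lies at chr1:131019845-131024974 on the plus strand. Its level was 38.5, 80.5, 99.8 and 89.1 CPM in KO 1 to KO 4, against 50.5, 48.0, 44.0 and 44.5 CPM in WT 1 to WT 4. KO 2 to KO 4 exceeded every WT library, KO 1 was below every one, and the WT libraries lay within a narrow range. In the 5 other libraries the mean was 89.8 ± 9.7 CPM in Tgfbr2_KO (SD, n = 3) and 44.2 ± 0.32 CPM in WT (SD, n = 2). The edgeR estimate on the log2 scale was 1.02 (SE 0.09, adjusted p = 2.36e-05).

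In the lung-rich set the log2 fold change of Il10 was -0.42 (SE 0.11, edgeR adjusted p = 0.0796). The difference between the sets, -1.37 on the log2 scale, passed the edgeR test (adjusted p = 0.000144). Over 8 libraries edgeR gave 0.72 (SE 0.27, adjusted p = 0.383), and without KO 1 it gave 0.94, which passed (adjusted p = 0.00269). The estimate with the set as a term, 0.56, did not pass (SE 0.26, adjusted p = 0.191 by edgeR).

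Relative to the C1q chains, Il10 did not overlap between the genotypes. It stood at 9.93, 8.995, 11.9 and 10.3 per 1000 CPM of C1q chains in KO 1 to KO 4, against 8.95, 7.86, 5.18 and 5.09 in WT 1 to WT 4. All 4 Tgfbr2_KO libraries were higher, as they were for 3.18% of all tested genes on this scale, though KO 2 exceeded WT 1 only narrowly. The log2 ratio was 0.64 (exact two-sided permutation p = 0.0286, the smallest that 4 against 4 libraries can give, and 0.257 after Benjamini-Hochberg adjustment over the 9 genes). Against the sum of 10 macrophage markers the log2 ratio was 0.68, with the same exact p and again no overlap, against 4.01% of all tested genes.

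The receptor chain for interleukin 10 did not pass in either set. Il10ra (chr9:45253837-45269149, minus strand) was at 204, 342, 349 and 342 CPM in KO 1 to KO 4, against 277, 305, 339 and 343 CPM in WT 1 to WT 4. Outside KO 1 the groups overlapped, and in the 5 other libraries the log2 fold change was 0.02 (interval -0.05 to 0.08, edgeR adjusted p = 0.71). In the lung-rich set it was -0.58 (SE 0.14, edgeR adjusted p = 0.057), and the sets differed by -0.53 (edgeR adjusted p = 0.00099). Relative to the C1q chains the log2 ratio was 0.09 in the lung-rich set, so its direction turned there, and 0.01 among the 5 other libraries. A pseudogene, Gm20612, overlaps Il10ra on the other strand. The strand setting of the counting is not stated, so reads of the pair may be mixed.

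Il4ra, the chain shared by the receptors for interleukins 4 and 13, was higher in Tgfbr2_KO in the 5 other libraries. The gene, at chr7:125552120-125579474 on the plus strand, was at 269, 396, 424 and 406 CPM in KO 1 to KO 4, against 266, 266, 342 and 337 CPM in WT 1 to WT 4. The 3 lung-rich libraries had similar CPM, and KO 2 to KO 4 were above WT 3 and WT 4 without overlap. By edgeR the log2 fold change of Il4ra was 0.27 in the 5 other libraries (SE 0.03, edgeR adjusted p = 2.26e-06), -0.05 in the lung-rich set (SE 0.12, edgeR adjusted p = 0.856) and 0.18 with the set as a term (SE 0.06, edgeR adjusted p = 0.0912). The edgeR test of the difference between the sets passed (adjusted p = 0.0278), but not without WT 3 (adjusted p = 0.0689), without WT 4 (adjusted p = 0.0818) or with both summed (adjusted p = 0.0739). With library totals as the only scaling that edgeR test did not pass either (adjusted p = 0.0562). Relative to the C1q chains KO 1 stood at 69.4 per 1000 CPM, against 47.2 and 43.6 in WT 1 and WT 2, a log2 ratio of 0.61, against 0.26 among the 5 other libraries, so the order of the sets turned on that scale. An antisense gene, Gm44876, overlaps Il4ra.

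Csf1r (chr18:61100598-61132149, plus strand) was slightly higher in Tgfbr2_KO in the 5 other libraries. It was at 1509, 3003, 3068 and 3031 CPM in KO 1 to KO 4, against 2154, 2077, 2659 and 2669 CPM in WT 1 to WT 4. KO 2 to KO 4 were above every WT library and KO 1 below every one. For Csf1r the log2 fold change was 0.19 in the 5 other libraries (SE 0.03, edgeR adjusted p = 5.32e-06) and -0.55 in the lung-rich set (SE 0.13, edgeR adjusted p = 0.0624), and the sets differed by -0.68 (edgeR adjusted p = 4.66e-05). Per C1q chains the log2 ratio was 0.18 in the 5 other libraries, against 0.11 in the lung-rich set, with groups that overlapped over all 8. The gene Hmgxb3 overlaps Csf1r on the other strand.

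Csf1, the ligand of Csf1r, was highest in the lung-rich libraries. The gene, at chr3:107741048-107760469 on the minus strand, was at 52.4, 20.3, 18.8 and 15.9 CPM in KO 1 to KO 4, against 36.4, 35.97, 24.2 and 22.5 CPM in WT 1 to WT 4. The values of the lung-rich libraries did not overlap those of the other 5, and KO 1 was above all. Csf1 had a log2 fold change of -0.34 in the 5 other libraries (SE 0.09, edgeR adjusted p = 0.00758) and 0.47 in the lung-rich set (SE 0.11, edgeR adjusted p = 0.0593), and the sets differed by 0.87 (edgeR adjusted p = 0.00261). Summed endothelial markers, at 5871, 3969 and 3003 CPM in KO 1, WT 1 and WT 2 against 228 to 309.3 CPM elsewhere, and fibroblast markers, at 1063, 649.2 and 663.1 CPM against 76.95 to 113.3 CPM, were also highest in KO 1. Within the 5 other libraries the endothelial sum was 228 to 261.2 CPM in KO 2 to KO 4, against 309.3 and 306.6 CPM in WT 3 and WT 4. The epithelial sum was 163.7 to 217.3 CPM in KO 2 to KO 4, against 253.3 and 250.5 CPM in WT 3 and WT 4. The fibroblast sum overlapped there, at 76.95 to 113.3 CPM in KO 2 to KO 4, against 95.4 and 101.2 CPM in WT 3 and WT 4. The part of those cells in the level of Csf1 was not tested.

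Of the 9 genes, 6 thus passed the edgeR test of a difference in fold change between the sets (18.9% of all tested genes did), and Csf2rb, Csf2rb2 and Csf3r did not.

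The other genes of these pathways were read from 8 lists with 90 genes, of which 81 were tested. Over 8 libraries edgeR called 1 higher and 0 lower, and with the set as a term it called 12 higher and 14 lower, where 8.59% of all tested genes were higher and 7.89% lower. In the 5 other libraries it called 30 higher and 26 lower of 80 tested, where 19.7% of all tested genes were higher and 18.7% lower. Of the 26 genes called with the set as a term, 25 had the same sign within both sets, the exception being Mrc1, a lectin receptor, and all 26 also passed in the 5 other libraries. The fit that picked these genes used the same libraries, so this agreement follows in part from the selection. The median log2 fold change with the set as a term was -0.05 over the 81 genes, against 0.03 over all tested genes.

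Among other ligands, 0 of 4 tested genes passed with the set as a term. In the 5 other libraries 3 were higher, Csf2, Csf3 and Il6, where 19.7% of all tested genes were. Il6, interleukin 6, was at 28.1, 44.6, 51.1 and 48.9 CPM in KO 1 to KO 4, against 19.99, 31.2, 31.5 and 30.6 CPM in WT 1 to WT 4, a log2 fold change of 0.64 in the 5 other libraries (edgeR adjusted p = 2.16e-07) and 0.06 in the lung-rich set. Csf3, granulocyte colony-stimulating factor, was at 1.55, 3.54, 5.96 and 4.01 CPM in KO 1 to KO 4, against 0.769, 1.49, 1.80 and 1.91 CPM in WT 1 to WT 4. Its log2 fold change was 1.27 in the 5 other libraries (edgeR adjusted p = 0.000297) and 1.01 with the set as a term (edgeR adjusted p = 0.0516). Csf2, which encodes GM-CSF, stayed at or below 1.07 CPM in every library, Il3 and Il5 had 0 counts in all, and Il34 reached 3.93 CPM at most. Of 8 other receptor chains 2 were higher and 1 lower with the set as a term (8.59% and 7.89% of all tested genes were). Il3ra, the binding chain for interleukin 3, was at 38.9, 64.9, 61.7 and 66.3 CPM in KO 1 to KO 4, against 28.2, 31.1, 42.6 and 44.6 CPM in WT 1 to WT 4, and rose by 0.50 on the log2 scale (edgeR adjusted p = 0.00159). The difference in this chain ran opposite to that in both beta chains. Il6st, the signalling chain for interleukin 6, also rose (log2 fold change 0.47, edgeR adjusted p = 0.00123), and Il13ra1, which pairs with Il4ra, fell (log2 fold change -0.27, edgeR adjusted p = 0.01).

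Of 21 kinases, Stats and adaptors, 1 rose and 4 fell with the set as a term, where 8.59% of all tested genes were higher and 7.89% lower. Jak2, the kinase bound to the GM-CSF receptor, fell (log2 fold change -0.25, edgeR adjusted p = 0.0151), and Stat5b rose (0.25, adjusted p = 0.0161). Among 13 inhibitors, Dok2, an adaptor that damps kinase signals, rose (0.88, adjusted p = 0.00988), while Inpp5d, a lipid phosphatase, and Adam17, a protease that sheds Csf1r, fell (-0.33, adjusted p = 0.0317, and -0.43, adjusted p = 0.003). Of 7 transcription factors that act on Csf1r, Fli1 rose (0.22, edgeR adjusted p = 0.0142) and Cebpa and Irf8 fell. Cebpa was at 92.5, 137, 166 and 161 CPM in KO 1 to KO 4, against 150, 217, 343 and 345 CPM in WT 1 to WT 4 (log2 fold change -1.10, edgeR adjusted p = 0.00135).

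Several genes that interleukin 10 induces through Stat3 were higher in the 5 other libraries. With the set as a term 1 of 8 was higher, Sbno2, where 8.59% of all tested genes were. Sbno2, a transcriptional corepressor, was at 426, 837, 805 and 835 CPM in KO 1 to KO 4, against 406, 355, 381 and 375 CPM in WT 1 to WT 4 (log2 fold change 0.80, edgeR adjusted p = 0.024). In the 5 other libraries 5 of the 8 were higher and 2 lower, where 19.7% of all tested genes were higher and 18.7% lower. There the log2 fold change was 1.13 for Sbno2, 1.14 for the repressor Etv3, 0.84 for Bcl3 and 0.59 for Zfp36, which destabilises inflammatory mRNAs. In the lung-rich set it was 0.10, -0.17, -0.15 and -0.10 for the same genes. Socs3, a feedback inhibitor on the same list, was at 755 to 901 CPM in Tgfbr2_KO and 702 to 871 CPM in WT.

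Genes that interleukin 4 induces through Stat6 moved both ways. Of 14 tested, 5 were higher and 4 lower with the set as a term (8.59% and 7.89% of all tested genes were). Ccl24, a chemokine for eosinophils, was at 16.2, 42.8, 52.9 and 53.8 CPM in KO 1 to KO 4, against 4.91, 3.78, 4.82 and 6.10 CPM in WT 1 to WT 4, and was the 1 pathway gene called over 8 libraries (log2 fold change 3.08, edgeR adjusted p = 0.035). Retnla and the lectin Clec10a rose with the set as a term (1.78, edgeR adjusted p = 0.000318, and 1.77, adjusted p = 0.00043). Arg1, arginase, and the chemokine Ccl17 fell (-1.41, adjusted p = 0.0129, and -0.80, adjusted p = 0.00489), both at or below 18.7 CPM in every library.

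Of 8 targets of GM-CSF and Stat5, 1 rose and 1 fell with the set as a term, near the shares of all tested genes (8.59% and 7.89%). In the 5 other libraries 1 was higher and 4 were lower, where 19.7% of all tested genes were higher and 18.7% lower. Fabp4, a fatty acid carrier, was at 6.31, 5.54, 9.79 and 8.41 CPM in KO 1 to KO 4, against 2.43, 3.16, 2.21 and 3.12 CPM in WT 1 to WT 4 (log2 fold change 1.404, edgeR adjusted p = 0.00581). Plet1 fell (-2.57, edgeR adjusted p = 0.0442) and was at 24.5 and 26.6 CPM in WT 3 and WT 4, against 1.21 to 6.54 CPM in the other 6 libraries. Pparg, the factor that GM-CSF induces in alveolar macrophages, was at 12.5 to 22.9 CPM in Tgfbr2_KO and 13.0 to 23.8 CPM in WT. Cish, a direct Stat5 target, did not pass either (log2 fold change 0.14, edgeR adjusted p = 0.556).

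**Figure D4:**
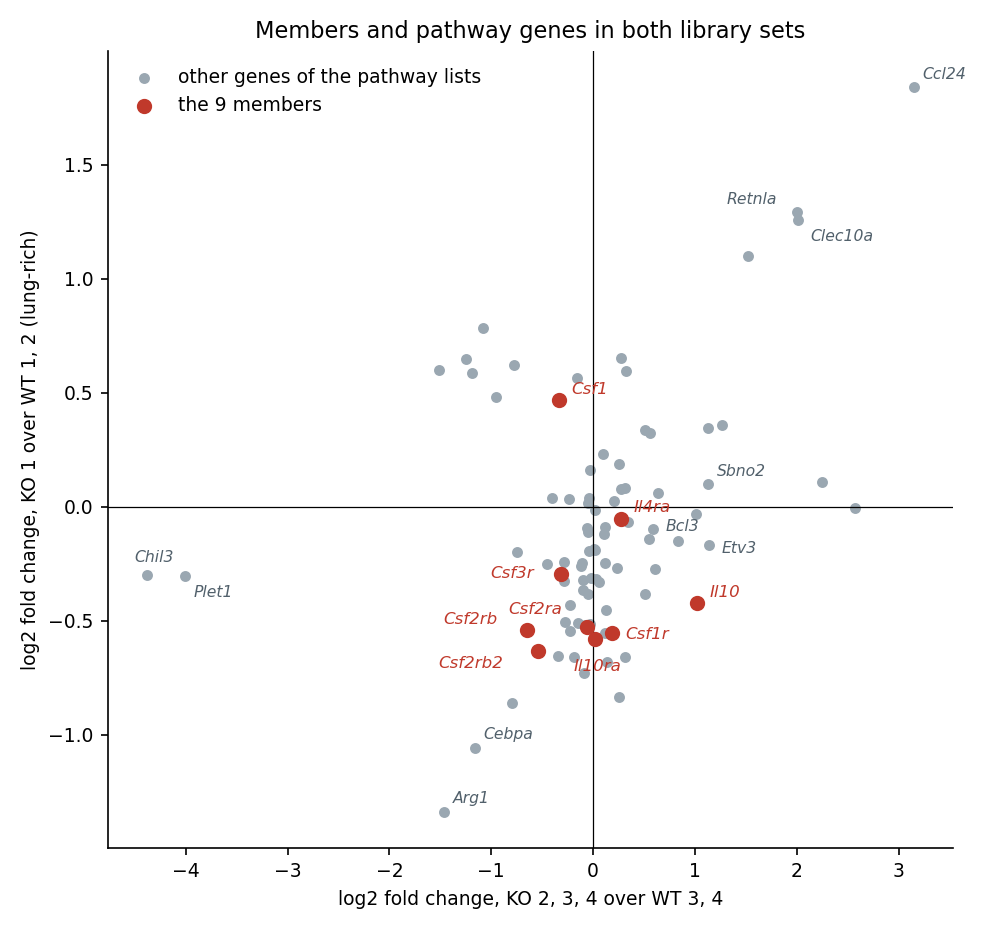
The log2 fold change in KO 2 to KO 4 over WT 3 and WT 4 (x axis) and in KO 1 over WT 1 and WT 2 (y axis), with red points for the 9 genes and grey points for the other genes of the pathway lists. Csf2rb, Csf2rb2 and Csf3r lie at the lower left, Il10 in the lower right, and Ccl24, Retnla and Clec10a in the upper right.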

How the data were processed

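RNA of sorted lung macrophages was measured in 8 libraries, 4 Tgfbr2_KO and 4 WT, made with a stranded mRNA kit, per the labels' protocols. The authors deposited 1 merged table of estimated counts from salmon, per the file's name and columns, with no scaling visible in the values. GRCm38 and DESeq2 1.40.1 are named in the submitters' processing notes. Not given in the sources used here are the version and strand setting of salmon, the annotation and any filter. Library totals of 15597310 to 37654133 put the floor of 3 counts at 0.0844 to 0.177 CPM.

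Expected counts, as deposited, were rounded to whole numbers (81.8% to 84.8% were whole within 0.0005) and analysed in R 4.3.3. The filter was filterByExpr with a minimum count of 10 and a minimum total of 15, and genes were scaled by TMM and tested with the robust quasi-likelihood F-test of edgeR 4.0.16, with Benjamini-Hochberg adjustment over all tested genes and a threshold of 0.05. The fits used genotype only, genotype with library set, their interaction, and each set alone, with the filter and scaling redone within a set, so a fold change there can differ from the ratio of the CPM. Intervals are at 95%. DESeq2 1.42.0, limma 3.58.1, other scalings and filters, a replicate block and left-out libraries were alternatives. Ratios to C1q chains and to 10 macrophage markers were added after seeing the data and tested with exact permutation over libraries. The genotype-only fit and the fit with the set were also run on simulated data with known changes. These data had a single dispersion and the same change in both sets. That run cannot show how the fits behave where the sets differ. Levels per length use GENCODE M21 exons. Upstream sequences are from RefSeq (GRCm38.p6) and were found for 5 of the 9 genes, not for Csf1r, Csf2rb, Il10ra and Il10.

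The 9 genes, the lists, the markers and the library sets were chosen with earlier results of these data known. Named were the 9 genes, from each pathway list every gene past 0.05 over 8 libraries and up to 4 more with the smallest p with the set as a term, and for each of the 9 the 3 genes most correlated with it among those of at least 10 CPM, predicted genes passed over. A few genes under this rule are not reported here. Tgfbr2, Lyz2, Mrc1, Socs3, Chil3, Siglecf, Marco, Ly6g, Cish, Il3 and Il5 were named outside that rule. The numbers of the replicates do not pair the samples.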

Additional observations from a re-analysis of the deposited data

Results flagged for a closer look

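KO 1 stood far from the other 3 Tgfbr2_KO libraries for 6 of the 9 genes. The gap from KO 1 to the nearest other library, as a share of the group's range, was 0.958 for Csf1r, 0.964 for Csf2ra, 0.947 for Csf2rb, 0.932 for Csf2rb2, 0.878 for Csf1 and 0.955 for Il10ra, each above Dixon's critical value for 4 samples. In all 18 groups of 4 were examined, and chance gives such a gap in about 1 of 20. The groups share the same libraries, so they are not independent. The share of all tested genes with such a gap was not counted. Across genes in general KO 1 differed from KO 2, KO 3 and KO 4 by 42.7 to 51.4 times counting noise. Between KO 2, KO 3 and KO 4 the figure was 2.06 to 3.07. KO 1 is also the Tgfbr2_KO library with the lung transcripts described above.

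The fold change of Tgfbr2_KO over WT differed between the lung-rich set and the 5 other libraries for 6 genes by the edgeR test of the interaction. On the log2 scale the fold change in the lung-rich set minus that in the others was -0.675 for Csf1r, -0.403 for Csf2ra, 0.872 for Csf1, -0.257 for Il4ra, -0.531 for Il10ra and -1.37 for Il10. The lung-rich set has 1 Tgfbr2_KO library, so this difference and anything particular to KO 1 cannot be told apart. For Csf2ra it no longer passed without WT 4 (edgeR adjusted p = 0.0572), and for Il4ra it did not pass under the settings given above.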

How the results depend on the processing

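Over 8 libraries with genotype only, the 9 genes had 0 higher and 0 lower calls. There were 3 higher in the 5 other libraries, 0 to 1 when 1 library was left out, and 3 lower by DESeq2 with the set, 3 lower by edgeR with the set and 4 lower in the 5 other libraries. All-gene calls, 38 at first, were 81 with library totals, 527 with DESeq2, 2449 with DESeq2 and the set, 2101 with the set, 716 in the lung-rich set, 4856 in the 5 other libraries and 0 to 860 with 1 library left out (860 without KO 1, 0 without any other). With the set as a term there was 1 gene higher with library totals, Il4ra (adjusted p = 0.0379), and 0 to 3 with 1 library left out (3 without KO 1), 1 to 4 lower with 1 left out (1 without WT 4), and 2101 genes in all became 809 with WT 3 and WT 4 summed and 769 to 3993 with 1 left out. The 6 differences between sets were 5 with library totals, 5 with WT 3 and WT 4 summed and 4 to 8 with 1 left out. Without WT 1 or without WT 2, Csf2rb2 passed as well, with opposite signs (-0.27 and 0.28), and without WT 2 so did Csf2rb (0.43).

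Signs of the pooled log2 fold change turned for Csf1r with the set (-0.0473, DESeq2 -0.0614) and in the lung-rich set (-0.552), for Csf2ra with the set (-0.20, DESeq2 -0.214), in the 5 other libraries (-0.0563) and among lung-rich ones (-0.527), for Csf3r with limma voom (0.0111), for Il10ra among the 5 other libraries (0.0164), and within the lung-rich set for Csf1 (0.469), Il4ra (-0.0522) and Il10 (-0.421). With 1 library left out it was -0.0903 to 0.257 for Csf2ra, -0.241 to 0.105 for Csf3r, -0.698 to 0.00666 for Csf1 and -0.104 to 0.123 for Il10ra. With the set as a term it was -0.164 to 0.188 for Csf1r, -0.339 to 0.0741 for Csf1 and -0.271 to 0.0143 for Il10ra with 1 left out, and for Csf1 0.0228 with library totals and 0.0485 with WT 3 and WT 4 summed. The cause was not tested.

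A replicate block called 0 genes. The deviations of same-numbered libraries correlated at 0.867, -0.794, 0.694 and 0.753, so the numbers are not a pairing, and KO 1, KO 2 and KO 3 correlated best with other numbers. WT 3 and WT 4 differed by 1.85 times counting noise, against 2.06 to 3.07 between KO 2, KO 3 and KO 4. The lowest level of any of the 9 genes, 15.9 CPM for Csf1 in KO 4, was above the floor of 3 counts in every library.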

Other observations

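The genes whose log2 CPM followed each of the 9 most closely over the 8 libraries are given as a description, since all points share the split into library sets. For Csf2rb they were Psap, Lgals3 and Rnf149 (Pearson r of 0.9988, 0.9986 and 0.9984), and for Csf2rb2 Pla2g7, Plin2 and Adam8 (0.9986, 0.9959 and 0.9959). Csf2ra followed Ctsa, Nup98 and Grb2 (0.9989, 0.9977 and 0.9977), and Csf3r followed Btg1 and Edem2 (0.9954 and 0.9945). Csf1r followed Myo5a, Impact and Cd83 (0.997, 0.9959 and 0.9956), and Csf1 followed Micall1, H6pd and Spin1 (0.9938, 0.9932 and 0.9928). Il4ra followed St6galnac4, Arnt and Asap1 (0.9969, 0.9967 and 0.9966), Il10ra followed Nlrp3, Sh3bgrl3 and Rab7b (0.9945, 0.9941 and 0.9939), and Il10 followed Dmxl1, Ehd1 and Stab1 (0.9929, 0.9909 and 0.9894). The candidates were 8677 genes.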
